A study of Mus musculus with 23 samples.

Results

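The genes described here are the 4 mouse PDGF ligand genes, Pdgfa, Pdgfb, Pdgfc and Pdgfd, and the 2 PDGF receptor genes, Pdgfra and Pdgfrb. They were chosen by name, and all 6 were found among the 19938 genes measured, each through 1 transcript cluster, the set of probes that an array combines into one value. The tumours were grown from Py2T cells, a murine breast cancer cell line, in the mammary fat pad of female FVB/N mice, whose ages the labels do not give. All 6 groups share this line, site and strain, so every tumour stems from 1 cell line. Treated mice received nintedanib at 50 mg per kg body weight, an inhibitor of the VEGF, FGF and PDGF receptor kinases, for 7 days (short-term) or 21 days (long-term). Untreated tumours had been matched in size to the long-term group, and no untreated group matched to the short-term tumours was compared here. The groups are separate samples, so a rise or fall given below is a difference between groups. The part of tumour size or age in these differences was not tested. Tumour cells and endothelial cells were then separated by fluorescence-activated sorting, and each sample was hybridised to 1 Affymetrix array. Tumour cells gave 3 untreated, 4 short-term and 5 long-term arrays, and endothelial cells gave 3 untreated, 3 short-term and 5 long-term arrays, which makes 23 in all. The labels call the arrays of a group biological replicates without saying whether each is a single animal or a pool.

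Platelet-derived growth factors act as dimers between neighbouring cells. PDGF-A and PDGF-B are released ready to bind, whereas PDGF-C and PDGF-D carry a CUB domain that proteases such as tissue plasminogen activator and urokinase remove first. PDGF-A and PDGF-C act mainly through PDGF receptor alpha, a receptor of mesenchymal cells, and PDGF-B acts through both receptors. In vessels, endothelial PDGF-B recruits pericytes, which carry PDGF receptor beta. Both receptors are tyrosine kinases that nintedanib inhibits, and the arrays measure their messenger RNA, not the activity of the protein.

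Endothelial cells had higher signals of Pdgfb and Pdgfd and lower signals of both receptors than tumour cells at every stage of treatment. Within tumour cells, Pdgfra was higher after 21 than after 7 days of nintedanib, and the mean of Pdgfc was highest at 7 days without passing the test against untreated cells. No PDGF gene passed in any treatment comparison of endothelial cells, where 0 of all 19938 genes passed.

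The promoters of these 2 tumour cell genes are shown because they are the members with the largest treatment difference and with the only treatment call. Promoters of 4 of the 6 genes were read from RefSeq tables on the mouse build GRCm38.p6. Each was taken as 250 bases before to 50 after a transcription start that the table chose. Promoters of the other members were not read, which does not mean that the RefSeq tables lack them. The Pdgfra window lies downstream of the first annotated base of the gene, chr5:75151322, so it surrounds another start than that one. Both sequences below run 5′ to 3′ on the plus strand. Pdgfc lies at chr3:81036166-81036465 and Pdgfra at chr5:75152001-75152300, and capitals mark the only motif match, a CArG box.
Pdgfc: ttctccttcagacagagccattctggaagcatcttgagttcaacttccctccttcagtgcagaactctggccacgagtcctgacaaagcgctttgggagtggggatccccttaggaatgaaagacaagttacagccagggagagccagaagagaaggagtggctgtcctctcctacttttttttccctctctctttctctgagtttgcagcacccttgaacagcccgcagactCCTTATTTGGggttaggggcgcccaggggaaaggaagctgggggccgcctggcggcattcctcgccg
Pdgfra: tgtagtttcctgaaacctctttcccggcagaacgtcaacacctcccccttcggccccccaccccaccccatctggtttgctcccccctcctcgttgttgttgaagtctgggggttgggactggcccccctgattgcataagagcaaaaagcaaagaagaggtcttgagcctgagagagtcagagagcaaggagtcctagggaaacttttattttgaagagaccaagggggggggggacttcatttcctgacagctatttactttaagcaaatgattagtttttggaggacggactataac
The motifs were searched on both strands, with overlapping matches allowed. They were GGGCGG (the core of a GC box), TGANTCA (the AP-1 site) and ACGTG (the core of a hypoxia response element). TATAAA and the CArG box, to which serum response factor binds, were searched as well. The Pdgfc promoter holds 1 CArG box that starts 17 bases before the gene's start, and 1.63% of the 32851 RefSeq promoters hold such a match. None of the 5 motifs was found in the Pdgfra window. The GC content was 55.0% in the Pdgfc and 51.0% in the Pdgfra window. Among all promoters, GGGCGG occurred in 35.7%, ACGTG in 19.6%, TATAAA in 13.6% and TGANTCA in 7.81%.

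The sorted fractions were checked against their defining markers on the log2 scale of the deposited signals. Pecam1 read 11.1 to 11.7 in endothelial arrays and 3.79 to 4.77 in tumour arrays, and Cdh5 read 11.4 to 12.3 against 3.83 to 5.24. The mean of the 12 endothelial markers was 10.2 to 10.7 in endothelial arrays and 3.91 to 4.30 in tumour arrays. Krt8 and Krt18, keratins of simple epithelia, averaged 10.9 to 11.3 in tumour arrays. Epcam, another epithelial marker, read only 3.97 to 5.26 there. In endothelial arrays the mean of the 2 keratins spread from 6.89 to 10.6, so some of these arrays came close to the tumour level. The mean of 12 macrophage markers was 4.36 to 6.50 in endothelial and 4.11 to 4.66 in tumour arrays. It was highest in untreated replicate 1 and long-term replicates 3 and 4 of the endothelial cells. The 10 pericyte and smooth muscle markers averaged 5.44 to 6.14 in endothelial and 4.13 to 4.37 in tumour arrays. Within that list Rgs5 reached 4.96 to 8.72 in endothelial arrays, while Cspg4 stayed at 3.65 to 4.24. The 12 fibroblast markers averaged 6.34 to 7.70 in endothelial and 6.85 to 7.39 in tumour arrays, and Dcn of that list read 12.7 to 13.1 in tumour arrays. The 5 measured platelet markers averaged 4.02 to 4.64 over all arrays, and the 4 lymphatic markers 5.11 to 5.63 in endothelial arrays. Correlation between arrays of a group over all genes was at least 0.983 in tumour and 0.935 in endothelial cells, and the median residual SD was 0.156 and 0.255.

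**Figure D1:**
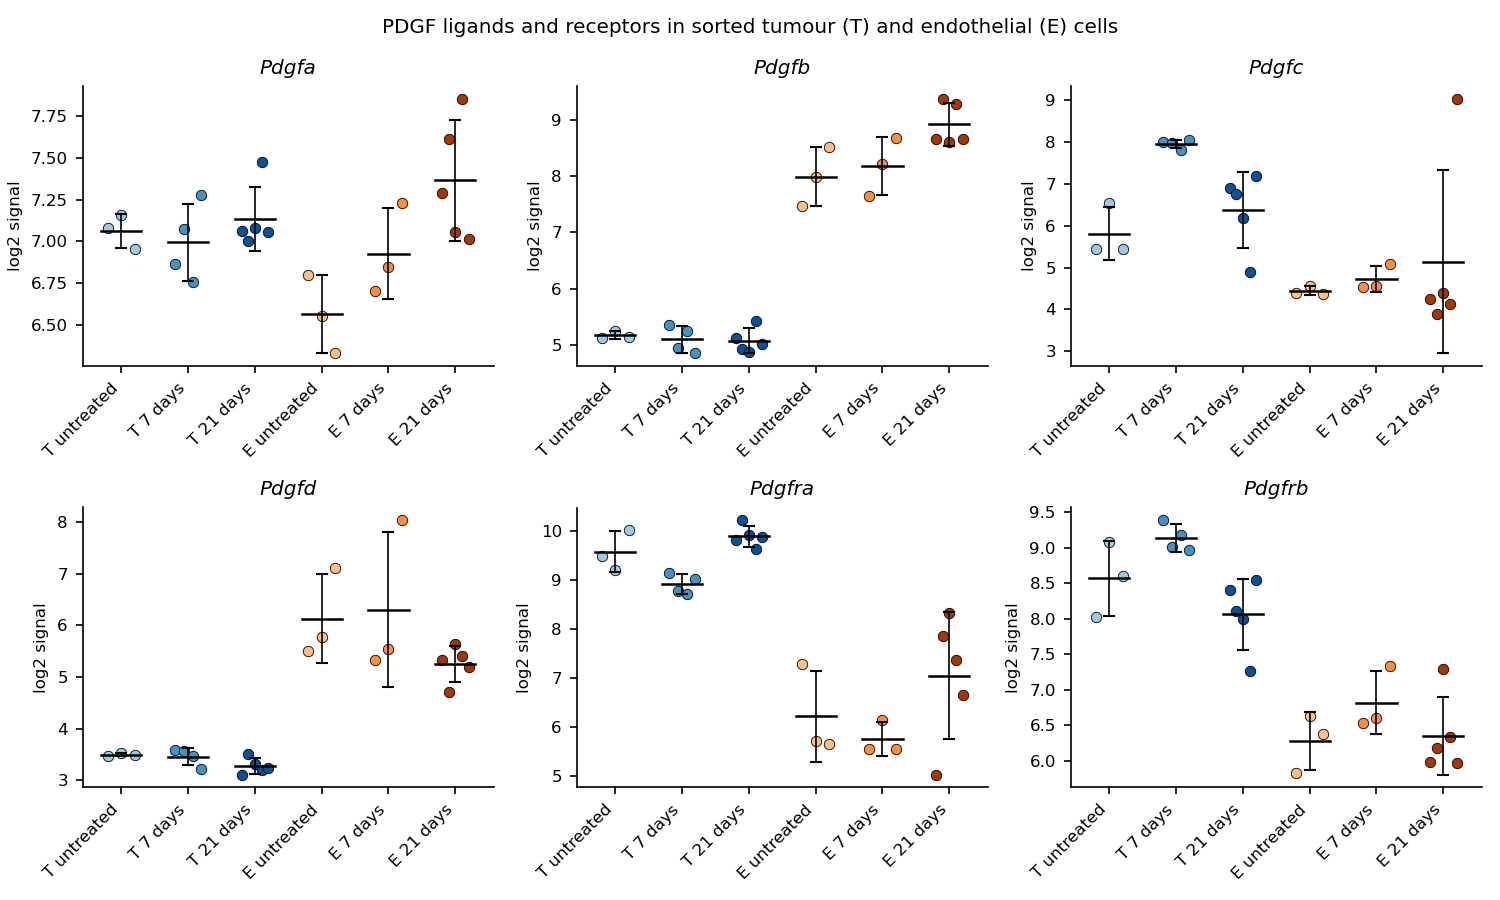
The 6 panels plot the log2 signal of each PDGF gene (vertical axis, own scale per panel) in the 6 groups (horizontal axis), with 1 point per array, a line at the group mean and bars of 1 SD (n = 3 to 5). Pdgfb and Pdgfd sit higher in endothelial (E) than in tumour (T) arrays, the receptors lower, and a single long-term endothelial array reads 9.03 for Pdgfc.

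Pdgfa encodes the A chain, a ligand of PDGF receptor alpha made by many epithelial cells. Its log2 signal was 7.08, 7.16 and 6.95 in untreated tumour cells, 6.87, 7.08, 6.76 and 7.27 in short-term cells, and 7.06, 7.00, 7.08, 7.47 and 7.06 in long-term cells. The 3 tumour groups overlapped. In endothelial cells it was 6.80, 6.56 and 6.34 without treatment, 6.70, 6.85 and 7.23 after 7 days, and 7.29, 7.61, 7.05, 7.85 and 7.01 after 21 days. All 5 long-term endothelial arrays lay above all 3 untreated ones, a difference of 0.80 ± 0.21 (SE) or 1.74-fold. That difference did not pass over all genes (adjusted p = 0.954). In the order of group means, long-term endothelial cells came first and untreated endothelial cells last, and each group overlapped with the next.

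Pdgfb encodes the B chain, which sprouting endothelium secretes to attract pericytes. Its log2 signal in tumour cells stayed between 4.86 and 5.43 over all 12 arrays, and the 3 treatment groups overlapped. In endothelial cells it was 7.46, 7.98 and 8.51 without treatment, 7.64, 8.21 and 8.67 after 7 days, and 8.65, 9.37, 8.61, 9.28 and 8.66 after 21 days. Each endothelial array was thus above each tumour array by more than 2 log2 units. Untreated endothelial exceeded untreated tumour cells by 2.81 ± 0.27 (7.02-fold, adjusted p = 1.66e-07), short-term by 3.07 ± 0.25 (8.41-fold, adjusted p = 1.39e-08) and long-term by 3.84 ± 0.21 (14.3-fold, adjusted p = 1.24e-11). The step between untreated endothelial and untreated tumour cells was the only gap in the order of the 6 groups, and the other neighbours overlapped. As with every difference between these sorted fractions, more cells with the transcript and more transcript per cell cannot be told apart.

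The 5 long-term endothelial arrays also lay above the 3 untreated ones for Pdgfb, by 0.93 ± 0.30 or 1.91-fold, with an unadjusted p of 0.0115 and an adjusted p of 1.00. Against short-term cells the long-term mean was 0.74 ± 0.30 higher (adjusted p = 0.506), or 0.47 without short-term replicate 1, and short-term cells differed from untreated ones by 0.19 ± 0.34 (adjusted p = 0.891). The 95% confidence interval of the long-term difference ran from 0.26 to 1.61. Without the 3 endothelial arrays of highest macrophage marker mean, chosen after seeing the data, the long-term difference was 0.65. With the keratin mean as a covariate, also chosen afterwards, it was 0.90.

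Pdgfc encodes a ligand of PDGF receptor alpha that needs cleavage before it binds. It had the largest treatment difference among the 6 genes in tumour cells. Its log2 signal was 5.44, 6.55 and 5.44 in untreated tumour cells, 7.996, 7.99, 7.82 and 8.04 after 7 days, and 6.90, 6.77, 6.19, 4.89 and 7.18 after 21 days. The 4 short-term arrays lay between 7.82 and 8.04 and above all other tumour arrays. Untreated and long-term arrays overlapped and spread widely, with SDs of 0.64 and 0.91 against 0.098 in the short-term group. Short-term minus untreated was 2.15 ± 0.45 (4.43-fold, 95% confidence interval 1.16 to 3.13), which did not pass over all genes (adjusted p = 0.0682). Over 21 alternative settings the adjusted p of this difference ran from 0.00859 to 0.795, and it reached 0.179 with 1 array left out. The adjusted p was 0.0435 when genes under the 30th percentile of mean level were left out and 0.0311 with those under the 50th left out. It was 0.00859 without long-term replicate 4, the lowest of the tumour arrays, whose removal leaves the difference as it was and narrows the spread that the groups share. Long-term minus short-term, which shares the same short-term arrays, was −1.57 ± 0.40 with an adjusted p of 0.0897, and 0.0418 with the 50th percentile filter. Among the alternatives of that difference the adjusted p reached 0.847, and 0.205 with 1 array left out. Long-term minus untreated was 0.57 ± 0.43 (adjusted p = 0.688), with values from 0.375 to 0.95 when 1 array was left out.

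In endothelial cells Pdgfc read 4.38, 4.57 and 4.38 without treatment, 4.53, 4.55 and 5.09 after 7 days, and 4.25, 3.88, 4.399, 4.13 and 9.03 after 21 days. Long-term replicate 5 stood apart from the other 10 endothelial arrays and exceeded all 12 tumour arrays as well. Of all 19938 genes Pdgfc had the largest excess in that array, 3.95 above the next highest endothelial array. In all, 25 genes were more than 1 log2 unit above every other endothelial array there, against 20 to 124 such genes in the others. The keratin mean of that array was 8.11, within the range of the endothelial arrays, and Pecam1 read 11.2 to 11.6 in the 5 arrays of the group. Whether Pdgfc is high in the cells of that sample was not tested. Short-term endothelial minus short-term tumour cells was −3.24 ± 0.84 (9.42-fold lower, adjusted p = 0.00544), with no overlap. Long-term minus untreated endothelial cells was 0.70 ± 1.01, and −0.28 without replicate 5. Long-term endothelial minus tumour cells was −1.25 ± 0.70 (adjusted p = 0.175), and −2.22 without that array (adjusted p = 5.69e-05). The untreated cell types differed by −1.37 ± 0.90 (adjusted p = 0.333), with an adjusted p of 0.0232 once that array no longer entered the shared spread. In the order of group means, short-term tumour cells came first with a gap to long-term tumour cells, and the other neighbours overlapped.

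Pdgfd encodes the second ligand that needs cleavage, which acts through PDGF receptor beta. Its log2 signal was 3.10 to 3.58 over the 12 tumour arrays and its mean over all 23 arrays lay below the median level of all genes. In endothelial cells it was 5.50, 5.78 and 7.11 without treatment, 5.34, 5.55 and 8.04 after 7 days, and 5.34, 4.70, 5.64, 5.41 and 5.19 after 21 days. All endothelial arrays were above all tumour arrays, and within the endothelial cells the untreated and short-term groups each had 1 array far above the rest. The difference between the cell types was 2.64 ± 0.48 without treatment (6.25-fold, adjusted p = 4.74e-04), 2.85 ± 0.45 at 7 days (7.22-fold, adjusted p = 7.69e-05) and 1.98 ± 0.37 at 21 days (3.96-fold, adjusted p = 3.90e-04). Long-term minus untreated endothelial cells was −0.88 ± 0.59 (adjusted p = 1.00), with overlapping groups, and −0.39 without untreated replicate 3. In the order of group means, the one gap lay between long-term endothelial and untreated tumour cells. Since the tumour signals are dim, these folds on the RMA scale can fall short of the true ratio.

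Pdgfra encodes PDGF receptor alpha, which binds the A, B and C chains. Its log2 signal was 9.50, 9.21 and 10.03 in untreated tumour cells, 9.15, 8.78, 8.72 and 9.02 after 7 days, and 9.82, 10.22, 9.93, 9.63 and 9.88 after 21 days. All 4 short-term arrays were below all other tumour arrays, and untreated and long-term arrays overlapped. Each of the 5 long-term arrays lay above each of the 4 short-term ones for Pdgfra. The long-term mean was 0.98 ± 0.16 or 1.97-fold higher (adjusted p = 0.0163). This call was lost without short-term replicate 2 (0.93, adjusted p = 0.0509) or replicate 3 (0.91, adjusted p = 0.0535), with a difference of like size, and in a fit blocked on replicate number (0.98, adjusted p = 0.0686), though these numbers are not known to pair samples. In one fit over all 23 arrays, where the wider endothelial spread enters, the adjusted p was 0.859. Short-term minus untreated was −0.66 ± 0.19 without overlap (adjusted p = 0.167), or −0.44 without untreated replicate 3. The remaining difference, long-term minus untreated, was 0.32 ± 0.18 (adjusted p = 0.581), and it was 0.13 without untreated replicate 2 and 0.54 without untreated replicate 3.

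In endothelial cells Pdgfra read 7.30, 5.72 and 5.66 without treatment, 5.56, 6.15 and 5.56 after 7 days, and 5.03, 7.86, 8.34, 7.38 and 6.66 after 21 days. The endothelial groups overlapped, and all endothelial arrays were below all tumour arrays. In the order of group means, short-term tumour cells were set off by a gap on both sides, and the other neighbours overlapped. The receptor was lower in endothelial than in tumour cells, with differences of −3.35 ± 0.56 without treatment (10.2-fold, adjusted p = 2.20e-04), −3.16 ± 0.53 at 7 days (8.91-fold, adjusted p = 1.44e-04) and −2.84 ± 0.44 at 21 days (7.16-fold, adjusted p = 4.90e-05). The long-term mean exceeded the short-term one by 1.29 ± 0.67 in endothelial cells (adjusted p = 0.575). The highest of these endothelial values were in long-term replicates 3, 2 and 4 and in untreated replicate 1, the 4 arrays with the highest keratin mean (9.99, 9.32, 10.6 and 9.55). Over the 11 endothelial arrays Pdgfra and that keratin mean, a relation examined after seeing the data, had a Pearson r of 0.799 (permutation p = 0.00294, adjusted 0.0265) and a Spearman rho of 0.764 (permutation p = 0.00772, adjusted 0.0695). Pearson's r was 0.874 for deviations from the treatment group means, and 0.778 without the 2 arrays farthest from the median. These keratins are 2 of 8 epithelial markers. The mean of the 8 was 5.63 to 8.09 in endothelial and 7.03 to 7.70 in tumour arrays. Of the 8 markers 3 had a positive and 5 a negative difference between untreated endothelial and tumour cells, with 0 called higher and 3 lower, and at 21 days 4 were positive and 4 negative. Tumour cells had the higher level of Pdgfra and of the keratin mean, and the part of tumour cell RNA in the endothelial Pdgfra signal was not tested. With the keratin mean as a covariate, long-term minus short-term was 1.11 (adjusted p = 0.465). Long-term minus untreated was 0.83 ± 0.67, and 0.47 with that covariate. Short-term minus untreated was −0.47 ± 0.75, and −0.64 with it. Without the 3 endothelial arrays of highest macrophage marker mean, long-term minus short-term was 0.76 and long-term minus untreated 0.83.

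Pdgfrb encodes PDGF receptor beta, the receptor of pericytes and fibroblasts. Its log2 signal was 8.02, 9.08 and 8.60 in untreated tumour cells, 9.39, 9.003, 9.18 and 8.97 after 7 days, and 8.40, 8.11, 7.99, 7.26 and 8.54 after 21 days. The short-term arrays were all above the long-term arrays, and the untreated arrays overlapped with both. Long-term minus short-term was −1.07 ± 0.25, a 2.10-fold difference, with an adjusted p of 0.0695. The adjusted p was 0.0458 without genes under the 30th and 0.0345 without those under the 50th percentile of mean level. It was 0.0474 without untreated replicate 2, and 0.0469, with a difference of −1.19, without long-term replicate 5. Over all single arrays left out, the adjusted p reached 0.195 and the difference ran from −1.19 to −0.873. Short-term minus untreated was 0.57 ± 0.29 (adjusted p = 0.512), and long-term minus untreated −0.50 ± 0.28 (adjusted p = 0.574). The first was 0.30 without untreated replicate 1. The second was −0.78 without untreated replicate 1, −0.25 without untreated replicate 2 and −0.30 without long-term replicate 4. In these tumour cells the 2 receptors thus had differences of opposite sign between 21 and 7 days, of which that of Pdgfra passed.

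In endothelial cells Pdgfrb read 5.83, 6.63 and 6.38 without treatment, 6.53, 6.60 and 7.33 after 7 days, and 5.98, 6.18, 7.29, 6.33 and 5.97 after 21 days, with overlap between all 3 groups. It was lower than in tumour cells, with differences of −2.28 ± 0.35 without treatment (4.87-fold, adjusted p = 9.24e-05), −2.32 ± 0.33 at 7 days (4.98-fold, adjusted p = 2.67e-05) and −1.71 ± 0.27 at 21 days (3.28-fold, adjusted p = 7.59e-05). In the 21-day comparison the ranges overlapped through 1 array on each side, long-term tumour replicate 4 at 7.26 and long-term endothelial replicate 3 at 7.29. In the order of group means, all 3 tumour groups preceded the endothelial ones, and each group overlapped with the next. Over the 11 endothelial arrays Pdgfrb followed the mean of the 12 fibroblast markers with a Pearson r of 0.883 (permutation p = 2.90e-04, adjusted 0.00522) and a Spearman rho of 0.827 (permutation p = 0.00293, adjusted 0.0527). Pearson's r was 0.867 without the 2 arrays farthest from the median and 0.862 for deviations from the treatment group means. With the pericyte marker mean Pearson's r was 0.441 (permutation p = 0.173, adjusted 0.450) and Spearman's rho 0.545 (permutation p = 0.0877, adjusted 0.316). Pdgfrb is itself a gene of both of these cell types, and their part in the endothelial signal was not tested.

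**Figure D2:**
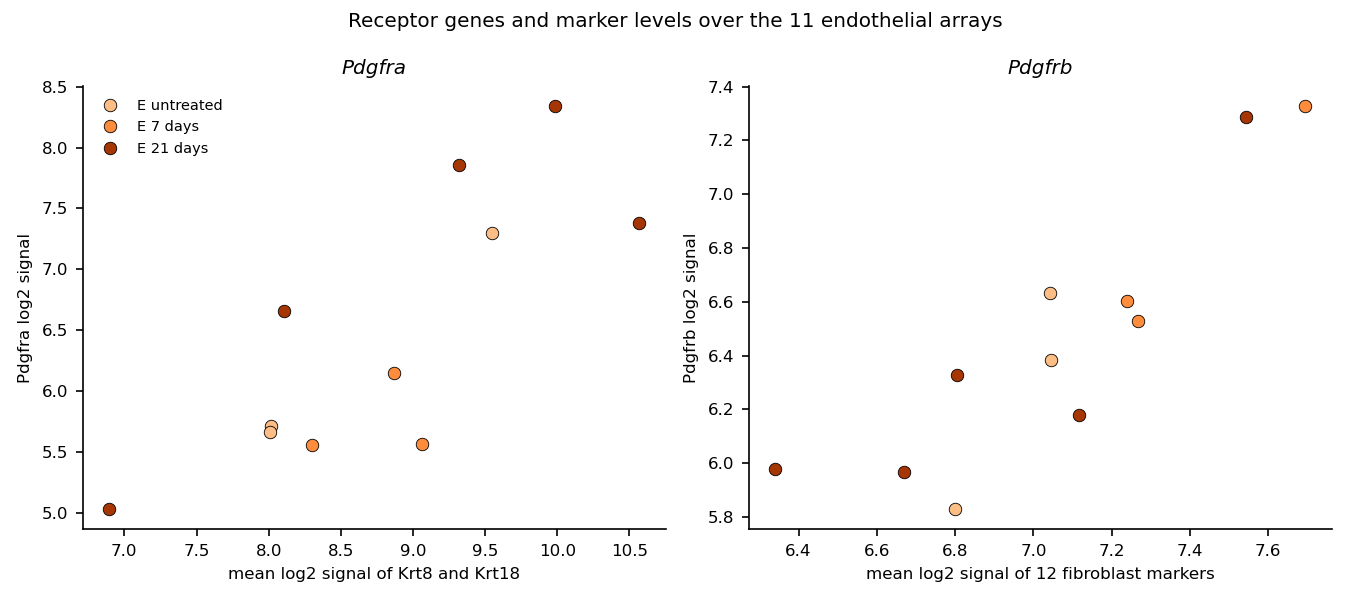
The left panel plots the Pdgfra log2 signal against the mean log2 signal of Krt8 and Krt18, and the right panel the Pdgfrb log2 signal against the mean of 12 fibroblast markers, with 1 point per endothelial array (n = 11) coloured by treatment group. Both panels slope upwards, with Pearson's r of 0.799 and 0.883. The relation of the left panel was chosen after seeing the data.

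These were 2 of 18 relations between PDGF genes and marker means, all adjusted together. Both had an adjusted p under 0.05 by Pearson's r and not by Spearman's rho, and the other 16 by neither. The relations with the keratin mean were added after seeing the data, so their adjusted p does not account for that choice. Pdgfra with the pericyte markers over endothelial arrays had a Pearson r of −0.67 (permutation p = 0.0254, adjusted 0.152) and a Spearman rho of −0.709 (permutation p = 0.0182, adjusted 0.109). Pdgfb with the macrophage markers over the same arrays had a Pearson r of −0.012 (permutation p = 0.972, adjusted 0.972) and a Spearman rho of 0.082 (permutation p = 0.816, adjusted 0.882). That r was 0.651 without the 2 arrays farthest from the median and −0.382 for deviations from the treatment group means, so it rests on few arrays. In tumour arrays, the smallest permutation p among the 6 relations was 0.0792, for the Spearman rho of −0.531 between Pdgfb and the macrophage markers (adjusted 0.316).

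Counts of PDGF genes past the threshold are given beside the share of all genes, which was at most 1.22% in any treatment comparison. Of the 6 genes, 0 were called by limma for short-term against untreated tumour cells, where 0.507% of all genes were called, and 2 had an unadjusted p under 0.05, against 11.02% of all genes. For long-term against untreated tumour cells 0 were called, where 0.0903% of all genes were called, and 0 had an unadjusted p under 0.05, against 10.13%. For long-term against short-term tumour cells 1 of 6 was called higher and 0 lower, where 1.22% of all genes were called, 0.6219% higher and 0.5969% lower. The groups did not overlap for 3 of the 6 there, against 5.34% of all genes, and for 2 of the 6 at short-term against untreated, against 10.2%. All of these tumour comparisons share arrays with one another, so their counts are not independent.

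In endothelial cells 0 of the 6 genes were called in each of the 3 treatment comparisons, where 0% of all 19938 genes were called by limma. At an unadjusted p under 0.05 there were 0 of 6 for short-term against untreated (8.170% of all genes), 2 for long-term against untreated (4.178%) and 1 for long-term against short-term (9.404%). The 2 genes of the long-term comparison were Pdgfa and Pdgfb, which were also the 2 members without overlap, against 3.51% of all genes. The 6 log2 differences there had a median of 0.75, and all genes one of 0.01.

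**Figure D3:**
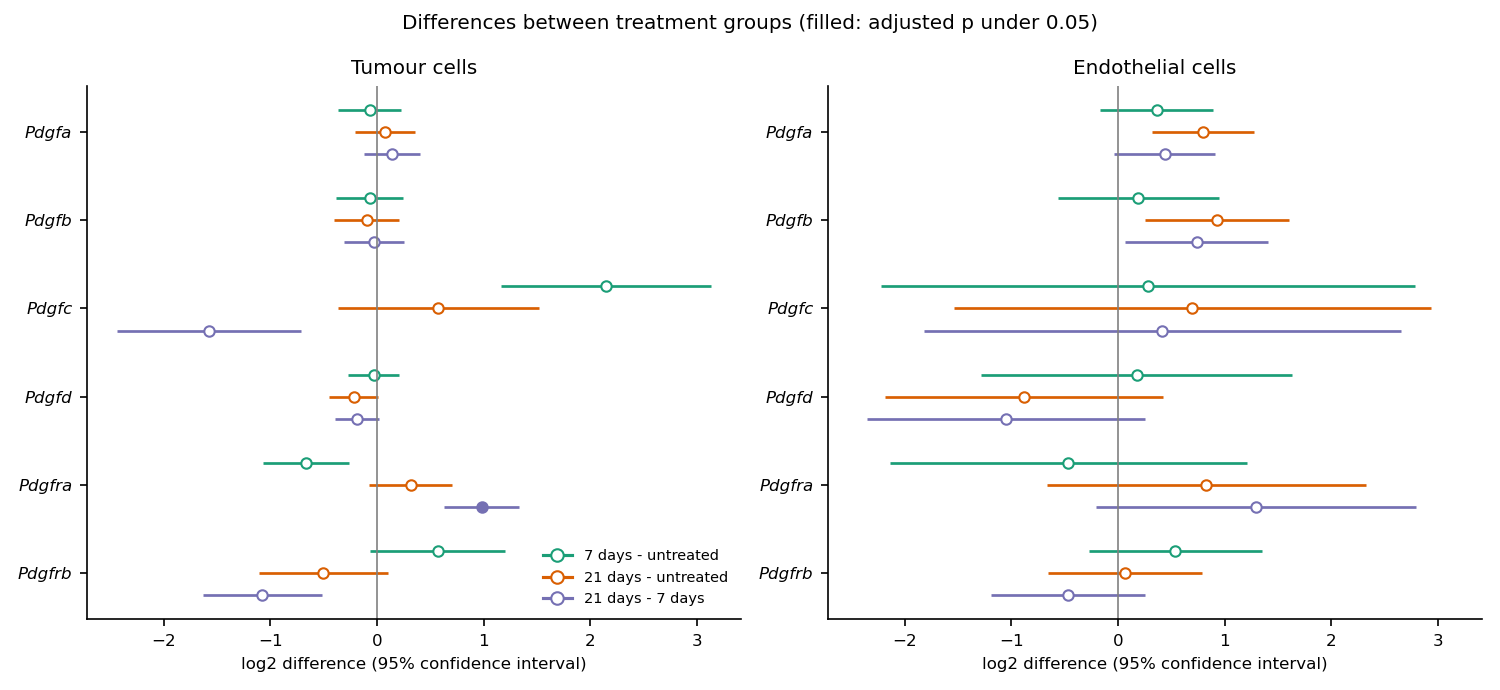
Points give the log2 difference (horizontal axis) of each PDGF gene between treatment groups and bars its 95% confidence interval, for tumour cells (left) and endothelial cells (right), with filled points at an adjusted p under 0.05. Only Pdgfra at 21 against 7 days in tumour cells is filled, and the endothelial intervals of Pdgfc, Pdgfd and Pdgfra are wide.

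Whether a treatment effect differed between the cell types was tested as an interaction in the fit over all 23 arrays. For the short-term effect 0 of 6 genes were called, where 0.0953% of all genes were called, and 0 had an unadjusted p under 0.05 (11.05% of all genes). For the long-term effect 0 of 6 were called, where 0% of all genes were called, and 2 had an unadjusted p under 0.05 (5.332%). These were Pdgfb, with a difference of 1.03 ± 0.34 between endothelial and tumour cells (adjusted p = 0.714), and Pdgfa, with 0.73 ± 0.25 (adjusted p = 0.719). For long-term against short-term 0 of 6 were called, where 0.0351% of all genes were called, and 1 had an unadjusted p under 0.05 (9.825%), again Pdgfb (0.77 ± 0.33, adjusted p = 0.453, and 0.50 without short-term endothelial replicate 1). The short-term difference of Pdgfc, 2.15 in tumour and 0.28 in endothelial cells, had an interaction of −1.87 ± 1.23 (adjusted p = 0.595). Without long-term endothelial replicate 5, which enters only the shared spread, it was −1.87 ± 0.56 (adjusted p = 0.244).

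Between the cell types, most PDGF genes differed at each stage. For untreated cells 4 of 6 genes were called, 2 higher and 2 lower in endothelial cells, where 18.3% of all genes were called, 8.175% higher and 10.16% lower. At 7 days 5 of 6 were called, 2 higher and 3 lower, where 40.0% of all genes were called, 23.03% higher and 16.96% lower. At 21 days 4 of 6 were called, 2 higher and 2 lower, where 32.0% of all genes were called, 15.67% higher and 16.32% lower. Pdgfb and Pdgfd were the 2 higher genes and Pdgfra and Pdgfrb were among the lower ones each time. Pdgfa was not called at any stage, with differences of −0.50 ± 0.20 (adjusted p = 0.0974), −0.07 ± 0.19 (adjusted p = 0.790) and 0.23 ± 0.16 (adjusted p = 0.267). For untreated cells Pdgfa passed with each array centred on its median (−0.58, adjusted p = 0.0466), and without the 3 endothelial arrays high in macrophage markers (−0.61, adjusted p = 0.0369). Without those 3 arrays the untreated difference was 3.07 for Pdgfb, −3.89 for Pdgfra and −2.06 for Pdgfrb. Centring or renewed quantile normalization moved the median difference of all genes by −0.113 at 7 days.

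**Figure D4:**
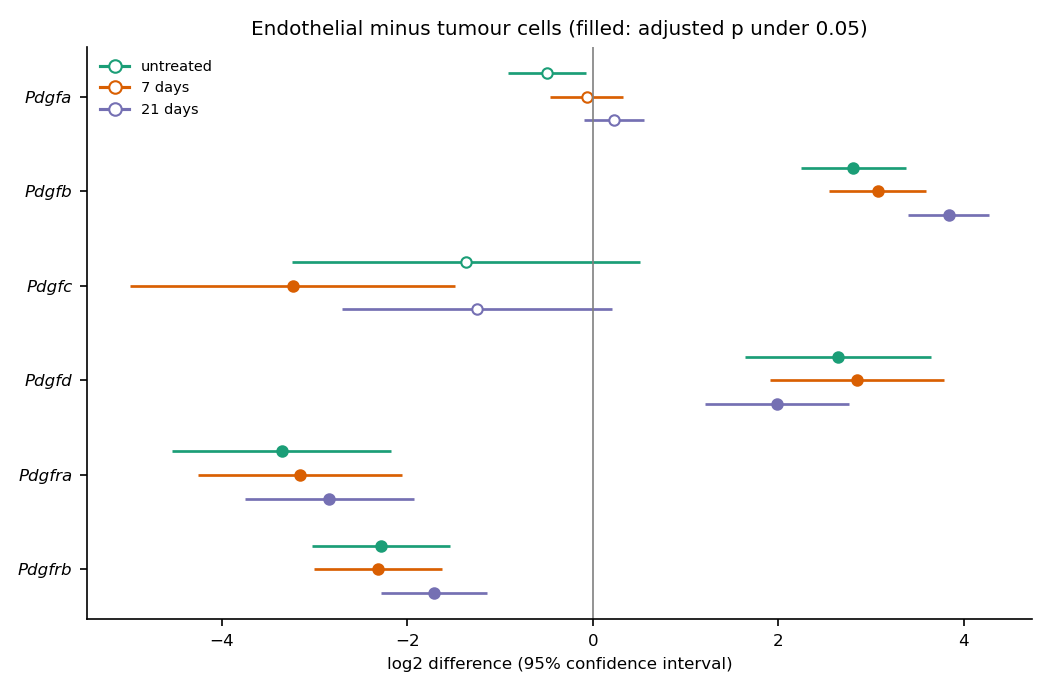
Points give the endothelial minus tumour log2 difference (horizontal axis) of each PDGF gene at the 3 treatment stages and bars its 95% confidence interval, with filled points at an adjusted p under 0.05. Pdgfb and Pdgfd lie right of 0 and both receptors left of 0 at all 3 stages. Pdgfa lies between −0.50 and 0.23, is not filled at any stage, and its untreated interval lies wholly below 0.

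The genes around the family were read from 5 lists, described by counts and medians. For short-term against untreated tumour cells limma called 4 of their 71 measured genes, where 0.507% of all genes were called. At an unadjusted p under 0.05 there were 22 of the 71, against 11.02% of all genes. For long-term against short-term tumour cells 3 of the 71 were called, against 1.22% of all genes. Of the 13 proteins that process or bind PDGF chains, 2 rose and 0 fell in short-term against untreated tumour cells. Nrp1, neuropilin 1, a co-receptor of VEGF that also binds PDGF, rose by 1.49 ± 0.24 or 2.82-fold (adjusted p = 0.0243). Thbs1, thrombospondin 1, a matrix glycoprotein that inhibits vessel growth, rose by 1.65 ± 0.32 or 3.14-fold (adjusted p = 0.0454). The median of the 13 differences was 0.23 and that of all genes −0.01. From 7 to 21 days 1 of the 13 fell, Nrp1 by 0.97 ± 0.21 (adjusted p = 0.0486), and 0 rose. Of the 23 measured adaptors and enzymes that dock on the receptors, 0 were called at 7 days, where Crk had the smallest p (0.43 ± 0.12, adjusted p = 0.165). From 7 to 21 days 1 of the 23 fell, Rasa1, a RAS GTPase-activating protein (−0.42 ± 0.08, adjusted p = 0.0285), and 0 rose.

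Of the 9 measured proteins that scaffold or attenuate the receptors, 1 rose in tumour cells at 7 days and 0 fell. This was Slc9a3r1, the scaffold NHERF1, by 0.89 ± 0.16 or 1.85-fold (adjusted p = 0.0396), and it fell by 0.84 ± 0.14 from 7 to 21 days (adjusted p = 0.0163). Of 15 early genes that PDGF induces in cultured fibroblasts, 1 rose at 7 days and 0 fell. Cxcl1, a chemokine that attracts neutrophils, rose by 1.56 ± 0.26 or 2.95-fold (adjusted p = 0.0254), and its difference from 7 to 21 days was −0.97 ± 0.22 (adjusted p = 0.0632). Of the 11 VEGF ligands and related receptors 0 were called in any treatment comparison of tumour cells. Vegfc had the smallest p at 7 days (0.64 ± 0.23, adjusted p = 0.301) and Vegfd from 7 to 21 days (0.57 ± 0.18, adjusted p = 0.178). For long-term against untreated tumour cells limma called 0 of the 71 measured genes of the 5 lists, and 11 had an unadjusted p under 0.05, against 10.13% of all genes. Thbs1 had the smallest p among the binding proteins (1.19 ± 0.30, adjusted p = 0.196) and Tfrc, the transferrin receptor, among the early genes (0.68 ± 0.21, adjusted p = 0.298).

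Cell type markers were read beside these tumour cell differences. Col1a1, a fibroblast collagen, was also read in the tumour arrays. It rose by 0.65 ± 0.12 at 7 days (adjusted p = 0.0448) and fell by 0.59 ± 0.11 from 7 to 21 days (adjusted p = 0.0234). Col1a1 was the one called gene of 12 fibroblast markers in both comparisons. The mean of the 12 was 6.85 to 7.35 in untreated, 7.20 to 7.39 in short-term and 7.07 to 7.35 in long-term tumour arrays. The 8 epithelial markers averaged 7.03 to 7.20 in untreated, 7.41 to 7.60 in short-term and 7.03 to 7.70 in long-term tumour arrays. None of the 8 was called, and 7 were positive at 7 days. The part of a changed cell mixture in the Pdgfc, Pdgfra and Pdgfrb differences of tumour cells was not tested.

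In endothelial cells limma called 0 of the 71 genes of the 5 lists in each treatment comparison. At an unadjusted p under 0.05 there were 9 for short-term against untreated (8.170% of all genes), 7 for long-term against untreated (4.178%) and 6 for long-term against short-term (9.404%). After 7 days Thbs1 had a difference of 2.13 ± 0.49 (adjusted p = 0.374) and Egr1, an early transcription factor, one of 1.24 ± 0.31 (adjusted p = 0.427). After 21 days Fos had the smallest p of the early genes (1.44 ± 0.24, adjusted p = 0.324). Of the 15 early genes 13 were positive at 7 days and 13 at 21 days, with medians of 0.55 and 0.64 against 0.06 and 0.01 over all genes, and both counts share the 3 untreated arrays. Markers of other cells moved beside them without a call. At 7 days 10 of 12 macrophage markers were negative (median −0.86), 10 of 12 fibroblast markers positive (0.47) and 8 of 10 pericyte markers positive (0.30). The macrophage marker mean was 6.50 in untreated replicate 1, 4.89 and 4.82 in untreated replicates 2 and 3, and 4.36 to 4.585 at 7 days. At 21 days 6 of 8 epithelial markers were positive (median 0.45). Their part in the early gene differences was not tested. From 7 to 21 days Pik3cb, a catalytic subunit of PI3 kinase, had a difference of 0.88 ± 0.18 (adjusted p = 0.312).

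Between untreated endothelial and tumour cells the binding proteins had 5 higher and 2 lower of 13 genes. Sparc, a matrix protein that binds PDGF-B, was 1.28 ± 0.09 higher in endothelial cells (adjusted p = 1.79e-09) and Pdgfrl, a receptor-like protein, was lower, with a difference of −1.76 ± 0.34 (adjusted p = 9.34e-04). Of the adaptors 6 were higher and 4 lower of 23, with the SRC family kinase Fyn at 2.20 ± 0.27 (adjusted p = 4.76e-06) and the PI3 kinase subunit Pik3r2 at −1.29 ± 0.20 (adjusted p = 7.03e-05). Of the attenuators 2 were higher and 2 lower of 9, led by the scaffold Slc9a3r2 at 3.60 ± 0.30 (adjusted p = 2.33e-08). Of the early genes 0 were higher and 6 lower of 15, among them Egr1 at −1.58 ± 0.26 (adjusted p = 1.61e-04). Of the relatives 5 were higher and 2 lower of 11, with Kdr, Flt1 and Flt4, which also serve as endothelial or lymphatic markers here, and Kit at 4.19 ± 0.26 (adjusted p = 2.04e-10). Kit is, with the PDGF receptors, a class III receptor tyrosine kinase, and its sign was opposite to theirs.

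Of the 71 genes of the 5 lists 34 were called between untreated cells, where 18.3% of all genes were, 42 at 7 days (40.0% of all genes) and 42 at 21 days (32.0%). At 7 days 4 higher and 2 lower binding proteins, 6 and 7 adaptors, 2 and 4 attenuators, 2 and 7 early genes and 6 and 2 relatives were called. Lrp1, a large endocytic receptor that binds PDGF receptor beta, was among the lower ones at −2.97 ± 0.47 (adjusted p = 7.28e-05). At 21 days 4 higher and 3 lower binding proteins, 7 and 6 adaptors, 4 and 3 attenuators, 2 and 5 early genes and 6 and 2 relatives were called. Nrp1 was higher in endothelial cells at that stage by 1.86 ± 0.21 (adjusted p = 9.47e-07), Fyn by 2.28 ± 0.21 (adjusted p = 5.21e-08) and the serum response factor gene Srf by 1.29 ± 0.26 (adjusted p = 8.18e-04). In the 3 interactions limma called 0 of the 71 genes, with 11 at an unadjusted p under 0.05 for the short-term effect (11.05% of all genes), 6 for the long-term effect (5.332%) and 10 for long-term against short-term (9.825%). The smallest adjusted p was 0.0923, for Akt1 in the short-term effect (0.82 ± 0.18).

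The genes of most similar pattern were taken by Pearson correlation over the arrays of the cell type with the higher mean of a member. The search covered 9551 genes in tumour and 9584 in endothelial cells that lay above the median level. The coefficients are the highest of many and are given as a description, without a test. For Pdgfc over 12 tumour arrays these were Ezr (ezrin, a membrane-cytoskeleton linker, r = 0.968), Tinagl1 (r = 0.953) and Aldh3a1 (an aldehyde dehydrogenase, r = 0.950). Ezr had means of 7.63 in untreated, 8.37 in short-term and 7.82 in long-term tumour cells, so its differences were smaller than those of Pdgfc. On deviations from the group means the 3 coefficients were 0.917, 0.890 and 0.877.

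For Pdgfra over the 12 tumour arrays the closest genes were Tgfbr3 (betaglycan, a TGF-beta co-receptor, r = 0.950), Gstm3 (a glutathione transferase, r = 0.949) and Fgf7 (keratinocyte growth factor, r = 0.941). Fgf7 ranged widely, with means of 5.51 in untreated, 3.88 in short-term and 6.68 in long-term tumour cells. Within groups its r with Pdgfra was 0.787. For Pdgfrb they were Col6a1 (r = 0.984), Col6a2 (r = 0.973) and Fbln2 (fibulin 2, r = 0.969), and the 2 collagen VI chains kept r of 0.971 and 0.947 on deviations from group means. Col6a2 had means of 7.62 in untreated, 8.39 in short-term and 7.26 in long-term tumour cells. Fbln2 is also on the fibroblast marker list, and its lowest level in long-term tumour cells was 9.05.

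**Figure D5:**
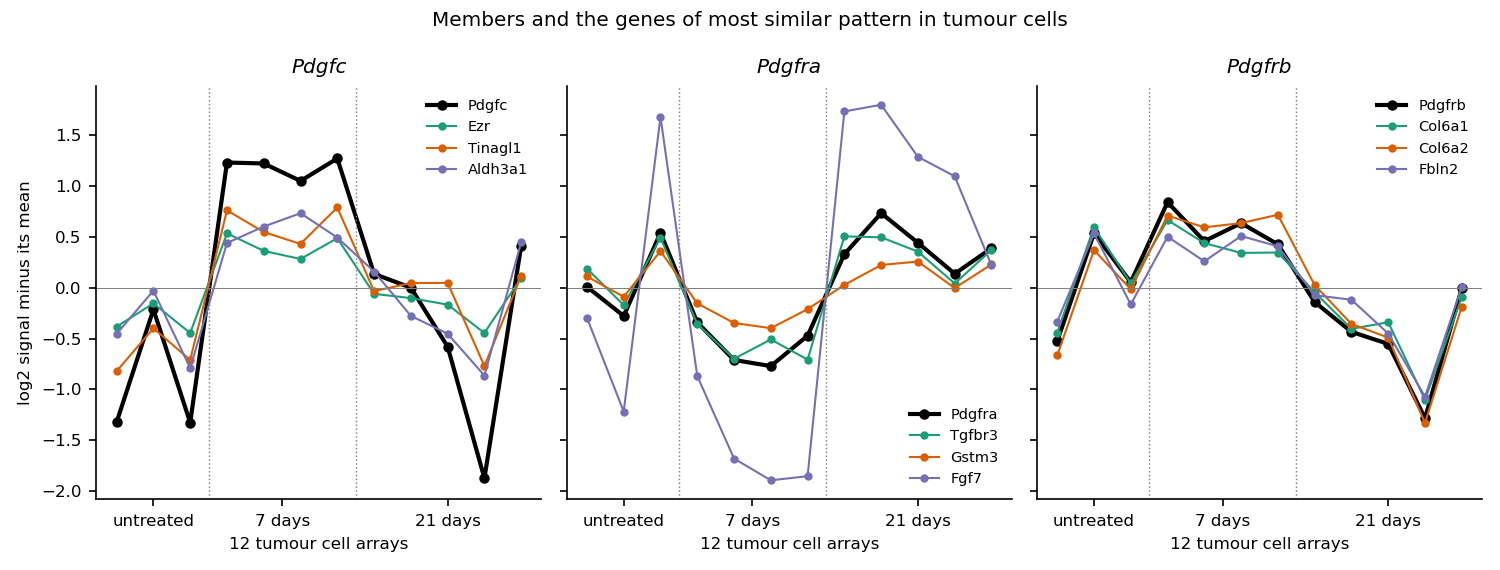
Each panel plots the log2 signal minus its own mean (vertical axis) for a PDGF gene in black and the 3 genes of highest Pearson r with it, over the 12 tumour cell arrays (horizontal axis) grouped by treatment. Lines only help to follow a gene, since arrays of a group have no order. By group mean each gene of the Pdgfc and Pdgfrb panels is highest in the short-term group and each gene of the Pdgfra panel lowest there, although single arrays overlap for some of them, with Fgf7 ranging more widely than Pdgfra.

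The other members had less similar neighbours or rested on few arrays. For Pdgfa over the 12 tumour arrays they were Rcbtb2 (r = 0.843), Ssu72 (r = 0.831) and Pkp2 (plakophilin 2, a desmosome protein, r = 0.816), but the rank correlation with Rcbtb2 was 0.510. For Pdgfb over 11 endothelial arrays they were Eif3b (a translation initiation factor subunit, r = 0.907), Wdr1 (r = 0.895) and Atp5b (r = 0.887). For Pdgfd over the endothelial arrays they were Rps4x (r = 0.921), Agap1 (r = 0.909) and Trim62 (r = 0.877), with rank correlations of 0.718, 0.582 and 0.500. The 2 endothelial arrays with Pdgfd signals of 7.11 and 8.04 weigh most in these values.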

How the data were processed

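The authors deposited log2 signals of 23 Affymetrix arrays, 1 per sorted sample, made with RMA and the oligo package per the submitters' processing notes, whose versions the sources used here do not name. This method subtracts background, brings all arrays to one distribution and combines the probes of a cluster, so a difference is relative to the other transcripts of an array and one in total RNA is lost. The labels' protocols list NuGEN kits for amplification.

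Values ran from 1.93 to 14.06 over 35556 transcript clusters, of which 21789 named 1 gene in the platform annotation, 1621 several and 12146 were not listed. Symbols of 21698 were found in the mouse RefSeq table (GRCm38.p6). Of several clusters of a gene (999 genes) the one with the highest mean was kept, which left 19938 genes without a filter on dim ones.

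Tests used limma 3.58.1 in R 4.3.3 on all genes, with two-sided p-values adjusted by Benjamini-Hochberg within a comparison and a call at an adjusted p under 0.05. Treatment was tested in the 12 tumour arrays and the 11 endothelial arrays separately, and cell types and interactions in all 23 arrays. Values after ± are standard errors. Relations with marker means used 100000 permutations. The number of arrays, 3 to 5 per group, limits the precision, and the p-values measure the spread between samples labelled biological replicates. The fits were tested on simulated data. Named genes were all 6 members, up to 4 called genes per list and comparison by smallest p (else the 1 with the smallest p), 3 genes of similar pattern per member, without predicted genes, small RNAs and olfactory receptors, and defining markers. Some genes of the lists, 4 marker genes among them, were not matched and are not reported here. Members and lists were chosen with earlier results of these data known. Alternatives covered filters, normalization, variance models, a replicate block and single arrays left out.

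Same-numbered arrays of different groups did not deviate together (correlations −0.15 to 0.11), so numbers were not used as pairs. The labels do not say whether tumour and endothelial samples came from the same animals. This check cannot exclude it, since it covers only arrays of the same number. The tests between cell types and of interactions treat the arrays as independent.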

Additional observations from a re-analysis of the deposited data

Results flagged for a closer look

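Of 18 sets of a PDGF gene in a group of 4 or 5 arrays, 3 held an array far from the others. The sets share arrays and the rate over all genes was not computed, so the count is only a description. Pdgfc in long-term endothelial replicate 5 read 9.03 on the log2 scale, and its gap to the next array was 0.899 of the group's range. Pdgfrb in long-term endothelial replicate 3 read 7.29, with a gap of 0.727 of the range. That array also had one of the highest macrophage marker means (6.50) and a keratin mean of 9.99. Pdgfa in long-term tumour replicate 4 read 7.47, with a gap of 0.826 of the range. The same array had the lowest Pdgfc (4.89) and the lowest Pdgfrb (7.26) of the tumour arrays.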

How the results depend on the processing

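The 72 single-gene differences were recomputed under 1914 combinations with an alternative. Direction and side of the threshold were kept in 1845, 4 lost and 15 gained a call, and 50 changed sign, 0 of them among the 14 called differences. For short-term against untreated tumour cells the number of PDGF genes called was 1 in place of 0 with either percentile filter (30th or 50th) and with a trend of the prior variance, and 0 to 1 with single arrays left out. For long-term against short-term tumour cells it was 0 in place of 1 in one fit over 23 arrays and with the replicate block, 2 with the 30th percentile filter, the variance trend or array weights, 3 with the 50th percentile filter, and 0 to 2 with single arrays left out. The replicate block gave Pdgfra 0.98 with an adjusted p of 0.0686 there, and the numbers are not known to pair samples. Filters leave fewer genes to adjust over, and standard errors moved with them as well. For Pdgfc at short-term against untreated tumour cells the SE was 0.452 in the main fit. It was 0.441 with the 30th and 0.432 with the 50th percentile filter. The cause of the changes was not tested.

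All sign changes were in differences that did not pass. With the replicate block they were Pdgfd 0.0241 (short-term against untreated) and Pdgfa −0.0071 (long-term against untreated) in tumour cells, Pdgfc −0.27 (long-term against untreated) and −0.55 (long-term against short-term) in endothelial cells, and Pdgfa 0.0264 for the cell types at 7 days. The last was 0.0035 with array weights and 0.19 with renewed quantile normalization, which also gave Pdgfrb 0.0948 in the short-term interaction. Without the 3 endothelial arrays high in macrophage markers, chosen after seeing the data, short-term against untreated endothelial cells gave Pdgfb −0.0695, Pdgfd −0.139 and Pdgfra 0.0692, long-term against untreated gave Pdgfrb −0.47, and the interactions gave Pdgfd −0.11 (short-term) and Pdgfra −0.22 (long-term against short-term).

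With single arrays left out, ranges across 0 in tumour cells were −0.162 to 0.0099 for Pdgfa, −0.155 to 0.0104 for Pdgfb and −0.073 to 0.0516 for Pdgfd (short-term against untreated), −0.011 to 0.12 for Pdgfa (long-term against untreated) and −0.12 to 0.0575 for Pdgfb (long-term against short-term). In endothelial cells they were −0.0695 to 0.46 for Pdgfb, −0.69 to 0.66 for Pdgfd and −0.75 to 0.0692 for Pdgfra (short-term against untreated), −0.28 to 1.01 for Pdgfc and −0.17 to 0.24 for Pdgfrb (long-term against untreated), and −0.56 to 0.73 for Pdgfc (long-term against short-term). Pdgfa between the cell types at 7 days ranged from −0.22 to 0.0451. In the interactions the ranges were −0.66 to 0.70 for Pdgfd, −0.0844 to 0.73 for Pdgfra and −0.29 to 0.24 for Pdgfrb (short-term), −0.85 to 0.44 for Pdgfc (long-term), and −1.35 to 0.0005 for Pdgfd and −0.007 to 0.82 for Pdgfra (long-term against short-term). The Pdgfd signal in tumour cells was dim, and endothelial arrays spread more widely than tumour arrays.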
